A study of Mus musculus with 4 samples.

Results

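The 10 amino acid transporter genes described here are Slc7a5, Slc3a2, Slc1a5, Slc1a4, Slc7a1, Slc7a6, Slc7a11, Slc38a1, Slc38a2 and Slc43a1. They were listed by gene symbol, with earlier results of these data known, and all 10 were found among the 50600 genes of each deposited table. The RNA came from regulatory T cells, a kind of CD4+ T cell that holds immune responses in check, in 1 group of 4 libraries numbered as biological replicates 1 to 4. The cells were primary cells of C57BL/6NJ mice, and no other genotype, treatment arm or control is given, so levels are compared between genes and spread is compared between libraries. The labels leave sex uncollected and age unknown, link a differentiation protocol for CD4+ T cells, and give every library the same donor identifier. The assay is labelled total RNA-seq, while the linked library protocol is for polyA+ RNA. The output names in the file headers read activated and 24 h. The labels do not say which libraries came from separate animals or cultures, so any p-value measures only the spread between these 4 libraries, part of which may be technical.

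Amino acids cannot cross the plasma membrane unaided, and T cells that begin to grow take them up through a small set of carriers. Slc7a5 encodes LAT1, the light chain that exchanges large neutral amino acids such as leucine, and it works only when joined to the heavy chain CD98, encoded by Slc3a2. Slc1a5 encodes the neutral amino acid exchanger ASCT2, a route for glutamine. Amino acids that enter by these routes feed protein synthesis and signal to the growth kinase mTORC1, and loss of Slc7a5 or Slc1a5 in mice is known to hinder T cell responses.

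The libraries held 38590127 to 93035969 counted fragments. The labelled cell type was checked on its markers: Foxp3 had 93.0 to 125 TPM and Cd4 511 to 581 TPM over the 4 libraries, where TPM is a count divided by gene length and scaled so that each library sums to 1000000. Ikzf2 was the lowest of the 6 regulatory T cell markers, at 3.34 to 5.25 TPM. Among markers of other cells, the 3 B cell genes summed to 0.851 to 2.41 TPM, the 4 myeloid genes to 0.0586 to 0.134 and the 3 NK genes to 0.219 to 0.614. The 3 stromal and epithelial genes summed to 5.82 to 7.11 TPM, of which Pecam1 made up 4.54 to 5.36 and Epcam 1.05 to 1.78, and the 2 erythroid genes summed to 0 to 0.0981. The 3 CD8 T cell genes summed to 17.4 to 26.0 TPM, nearly all of it Cd8b1, and Cd8a had 0.688 to 1.57. Lyz2, S100a8, Ncr1 and Hbb-bs had 0 fragments in all 4 libraries. Replicate 1 stood apart, with 2.04% of its fragments on the rRNA-related feature Gm42418 against 0.0704 to 0.175% in the others, and with 88.2% of its TPM on protein-coding genes against 95.6 to 96.6%. Xist, the RNA of the inactive X chromosome, had 100.4, 88.7, 0.716 and 0.603 TPM in replicates 1 to 4, and the Y-linked gene Ddx3y had 0.159, 0.101, 46.1 and 40.6 TPM. By both genes replicates 1 and 2 were female and replicates 3 and 4 male material, so the spread between libraries includes a difference between animals, despite the shared donor identifier. Whether the libraries within each of these pairs came from separate animals is not given.

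The members ranged from close to absent to highly expressed, and most of them were abundant. Of the 10 genes, 9 reached a mean of 1 TPM, 8 reached 10 and 7 reached 100. For comparison, 47.7% of the 21764 protein-coding genes reached 1 TPM, 36.2% reached 10 and 9.43% reached 100. The members' median level was 139 TPM. In bulk RNA, fewer cells with a transcript and less of it per cell cannot be told apart. Their TPM summed to 1476, 1516, 1594 and 1569 in replicates 1 to 4, and Slc7a5, Slc1a5 and Slc3a2 together held 62.2 ± 1.10% of that sum (SD, n = 4).

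**Figure D1:**
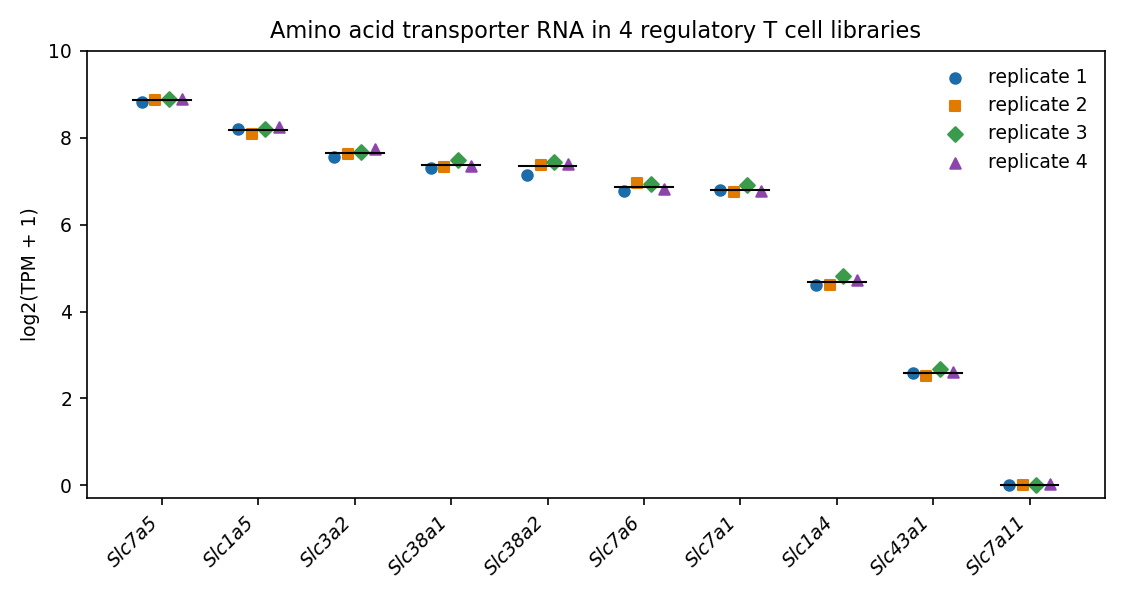
Level of each member as log2(TPM + 1), with 1 point per library and a bar at the mean of the 4 libraries. Levels step down from Slc7a5, at 453 to 475 TPM, to Slc7a11, at 0 to 0.0287 TPM, and the points of a gene lie close together.

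Slc7a5, the LAT1 light chain, was the most abundant member (ENSMUSG00000040010.10, chromosome 8, 121881150 to 121907694, minus strand, mm10). It had 453, 467, 474 and 475 TPM in replicates 1 to 4. The libraries lay close together, with replicate 1 the lowest. Its mean was 467 ± 10.2 TPM (SD, n = 4), which placed it at percentile 97.1 of the 10383 protein-coding genes with a mean of at least 1 TPM. Among the 365 protein-coding genes with an Slc symbol it ranked 2, behind Slc25a5, a mitochondrial ADP/ATP carrier at 1956 ± 124 TPM.

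Slc3a2, the CD98 heavy chain (ENSMUSG00000010095.13, chromosome 19, 8706882 to 8723369, minus strand), was lower than its main partner in every library. It had 187, 197, 203 and 213 TPM in replicates 1 to 4. Replicate 1 was again the lowest and replicate 4 the highest. Slc7a5 RNA exceeded Slc3a2 RNA 2.43-, 2.37-, 2.34- and 2.23-fold in replicates 1 to 4, a log2 difference of 1.22 ± 0.05 on the log2(TPM + 1) scale (SD, n = 4). Flipping signs over 4 libraries in an exact two-sided permutation test cannot give less than p = 0.125, which this pair reached, so the difference is given by its size and spread.

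CD98 is shared by several light chains, and these were unequal. Slc7a6 encodes y+LAT2, which exchanges cationic for neutral amino acids (ENSMUSG00000031904.5, chromosome 8, 106168857 to 106198706, plus strand). It had 108, 123, 121 and 112 TPM in replicates 1 to 4. Its libraries did not separate by depth or by replicate 1 alone, since replicate 4 was nearly as low as replicate 1. Slc7a5 exceeded Slc7a6 by 2.00 ± 0.08 on the log2(TPM + 1) scale, in 4 of 4 libraries. Of the TPM of 6 known CD98 light chains, Slc7a5 held 79.9 ± 0.834%, Slc7a6 19.8 ± 0.837% and Slc7a7 0.234 ± 0.0224%, and Slc7a10 had 0 fragments. The member light chains Slc7a5, Slc7a6 and Slc7a11 together had 3.01, 2.99, 2.94 and 2.76 times the TPM of Slc3a2 in replicates 1 to 4. These are ratios of RNA per length, and protein was not measured.

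Slc1a5 was the second most abundant member (ENSMUSG00000001918.17, chromosome 7, 16781340 to 16798274, plus strand). It had 291, 271, 294 and 301 TPM in replicates 1 to 4. Replicate 2 was the lowest, and the other libraries lay within 10 TPM of each other. Its relative Slc1a4, which encodes the alanine, serine and cysteine exchanger ASCT1 (ENSMUSG00000020142.12, chromosome 11, 20302180 to 20332713, minus strand), had 23.5, 23.2, 27.1 and 25.4 TPM. The 2 genes did not overlap in any library. Slc1a5 held 92.1 ± 0.415% of the pair's TPM, and the log2(TPM + 1) difference was 3.49 ± 0.08 (SD, n = 4). The 5 excitatory amino acid carriers of the same family, Slc1a1, Slc1a2, Slc1a3, Slc1a6 and Slc1a7, summed to 0.0344 to 0.157 TPM.

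Slc38a1 and Slc38a2 encode SNAT1 and SNAT2, sodium-coupled carriers of small neutral amino acids including glutamine. They lie on the same strand of chromosome 15, Slc38a1 at 96571418 to 96642913 (ENSMUSG00000023169.14) and Slc38a2 at 96687394 to 96699698 (ENSMUSG00000022462.6), 44481 bp apart. Slc38a1 had 157, 159, 177 and 162 TPM in replicates 1 to 4, and Slc38a2 had 141, 164, 173 and 167. Slc38a2 was lowest in replicate 1, while Slc38a1 was almost the same in replicates 1 and 2. Slc38a1 was the higher gene in 2 of 4 libraries, and the log2(TPM + 1) difference, Slc38a1 minus Slc38a2, was 0.02 ± 0.09 (SD, n = 4; exact two-sided sign-flip permutation test, p = 0.875), smaller than its own spread. That near equality depends on the length used. With the longest transcript of each gene in GENCODE release 21 in place of the deposited length, an alternative chosen after seeing the data, Slc38a1 had 150 ± 7.83 and Slc38a2 96.7 ± 7.54 TPM. The longest Slc38a2 transcript, 6116 bp, exceeds the 4626 bp of exons over which its fragments were counted, which holds for no other member. Fragments from the rest of that transcript were not counted, so this length lowers the Slc38a2 level by construction. Other plasma membrane genes of this family, Slc38a3, Slc38a4 and Slc38a5, had 0 fragments in all 4 libraries.

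Slc7a1 encodes CAT1, the main carrier of arginine and lysine in many cells (ENSMUSG00000041313.14, chromosome 5, 148327410 to 148399904, minus strand). It had 110, 106, 120 and 108 TPM in replicates 1 to 4. Replicate 3 was the highest and the other libraries lay close together. Slc7a6 was higher than Slc7a1 in 3 of 4 libraries, and the log2(TPM + 1) difference of 0.06 ± 0.10 was within its spread (exact two-sided sign-flip permutation test, p = 0.375). On the longest annotated transcript of each gene the difference, Slc7a6 minus Slc7a1, was -0.33 ± 0.10, with Slc7a1 higher in 4 of 4 libraries. Slc7a1 held 98.5 ± 0.0936% of the TPM of the cationic carriers Slc7a1, Slc7a2 and Slc7a3. Slc7a3 had 1.68 ± 0.0529 TPM and Slc7a2 had 0 fragments. The exon length of Slc7a1 in the deposited tables, 11530 bp, exceeds its longest annotated transcript of 7179 bp, and on that length its level was 142 ± 7.89 TPM.

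Slc43a1 encodes LAT3, a carrier of branched-chain amino acids that needs no heavy chain (ENSMUSG00000027075.16, chromosome 2, 84838850 to 84863594, plus strand). It had 4.98, 4.69, 5.37 and 5.10 TPM in replicates 1 to 4, from 344 to 804 fragments. Among the system L genes, those that carry large neutral amino acids, Slc7a5 held 93.2 ± 0.416% of the TPM, the LAT4 gene Slc43a2 5.73 ± 0.404%, Slc43a1 1.00 ± 0.0483% and the LAT2 gene Slc7a8 0.0463 ± 0.0208%. Slc7a5 exceeded Slc43a1 by 6.28 ± 0.06 on the log2(TPM + 1) scale, in 4 of 4 libraries.

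Slc7a11, the cystine and glutamate exchanger xCT, was close to absent (ENSMUSG00000027737.10, chromosome 3, 49892526 to 50443614, minus strand). It had 0, 1, 1 and 11 fragments in replicates 1 to 4. The 0 in replicate 1 allows up to 0.0777 CPM, fragments per 1000000, at 3 fragments, and the upper end of its exact two-sided 95% Poisson interval is 0.0956. Replicate 4, the deepest library, had 0.118 CPM with an exact 95% Poisson interval of 0.0590 to 0.212. The intervals of the single fragments were 0.000571 to 0.126 CPM in replicate 2 and 0.000524 to 0.115 in replicate 3. Overlap of such intervals does not test whether replicate 4 differs. These intervals cover counting error only. Slc7a5 had 510 to 526 CPM in the same libraries. Glutathione is made from cysteine by glutamate-cysteine ligase, whose subunits are Gclc and Gclm, and then by the synthetase Gss. These genes had 43.5 ± 3.44, 22.9 ± 2.00 and 15.2 ± 1.24 TPM. Cth and Cbs, of the route that makes cysteine, were lower, at 1.96 ± 0.270 and 1.58 ± 0.314 TPM. All were chosen after their values were seen.

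Promoter sequence from the RefSeq table on GRCm38.p6, the assembly also called mm10, was at hand for 7 of the 10 members. Slc7a5, Slc1a5 and Slc38a1 had none there and were not searched. The 250 bases before each start were searched on both strands for CACGTG (an E-box, the element of MYC and MAX), TGATGNAA (an element of ATF4 with its C/EBP partners) and TGACNNNGC (a core of the antioxidant response element of NRF2), motifs picked after the levels were known. Over all 32851 promoters in the table, 6.02% held the first, 3.45% the second and 10.2% the third. Slc7a11 held TGATGNAA at 2 places, whose first bases lie 66 and 47 bases before the start. Slc43a1 held CACGTG and TGACNNNGC 1 time each, and Slc38a2, Slc7a1 and Slc7a6 each held TGACNNNGC 1 time in 1 of their promoters. The other windows, with Slc3a2 and Slc1a4 among them, held none of these letters. A match is a string of letters, and no binding was measured. The lowest member is printed with 2 abundant ones whose windows lie outside annotated exons, 5′ to 3′ on the gene's strand, with matches in capitals.
Slc7a11, chr3:50443615-50443863, minus strand: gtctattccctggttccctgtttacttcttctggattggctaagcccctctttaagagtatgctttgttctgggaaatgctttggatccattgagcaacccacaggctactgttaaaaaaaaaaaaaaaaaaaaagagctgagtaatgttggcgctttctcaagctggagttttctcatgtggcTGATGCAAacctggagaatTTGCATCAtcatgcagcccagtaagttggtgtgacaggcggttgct
Slc38a2, chr15:96699729-96699978, minus strand: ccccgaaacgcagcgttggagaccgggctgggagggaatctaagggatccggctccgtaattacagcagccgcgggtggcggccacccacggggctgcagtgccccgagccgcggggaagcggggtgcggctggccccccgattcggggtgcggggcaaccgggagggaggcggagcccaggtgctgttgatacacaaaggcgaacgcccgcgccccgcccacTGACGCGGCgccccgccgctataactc
Slc7a1, chr5:148399905-148400154, minus strand: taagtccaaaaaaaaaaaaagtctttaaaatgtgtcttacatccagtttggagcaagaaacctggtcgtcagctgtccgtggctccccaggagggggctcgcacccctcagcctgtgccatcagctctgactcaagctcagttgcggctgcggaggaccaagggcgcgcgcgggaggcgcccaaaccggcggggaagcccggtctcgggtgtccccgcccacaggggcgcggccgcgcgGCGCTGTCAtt
The matches of Slc7a11 are the pair of TGATGNAA letters in opposite directions, while Slc38a2 and Slc7a1 each show a single TGACNNNGC match near the start.

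Set in order of mean TPM, the members ran Slc7a5, Slc1a5, Slc3a2, Slc38a1, Slc38a2, Slc7a6, Slc7a1, Slc1a4, Slc43a1 and Slc7a11. Of the 9 neighbouring pairs, 7 kept their order in 4 of 4 libraries, and the pairs Slc38a1 with Slc38a2 and Slc7a6 with Slc7a1 did not. The order also depends on the length used. On the longest transcripts Slc38a2 was lower than Slc7a6 in 4 of 4 libraries, with a log2 difference of -0.21 ± 0.08. On the deposited lengths that difference was 0.47 ± 0.08. The longest Slc38a2 transcript exceeds the exons over which its fragments were counted, which lowers Slc38a2 on that length. The means on the longest transcripts ran in the order Slc38a1, Slc7a1, Slc7a6 and Slc38a2. The other neighbours that kept their order in every library did so on both lengths. The smallest difference that held in every library on the deposited lengths was between Slc3a2 and Slc38a1, at 0.29 ± 0.09 on the log2(TPM + 1) scale. Above Slc7a11, whose distance is set by the pseudocount, the largest steps were from Slc7a1 to Slc1a4 (2.12 ± 0.06) and from Slc1a4 to Slc43a1 (2.10 ± 0.05). These were 2.16 and 2.28 with a pseudocount of 0.1, so which of them is the larger depends on the pseudocount. With 14 pairs compared, no adjusted p went below 0.146, since the exact sign-flip permutation test cannot pass 0.05 with 4 libraries.

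**Figure D2:**
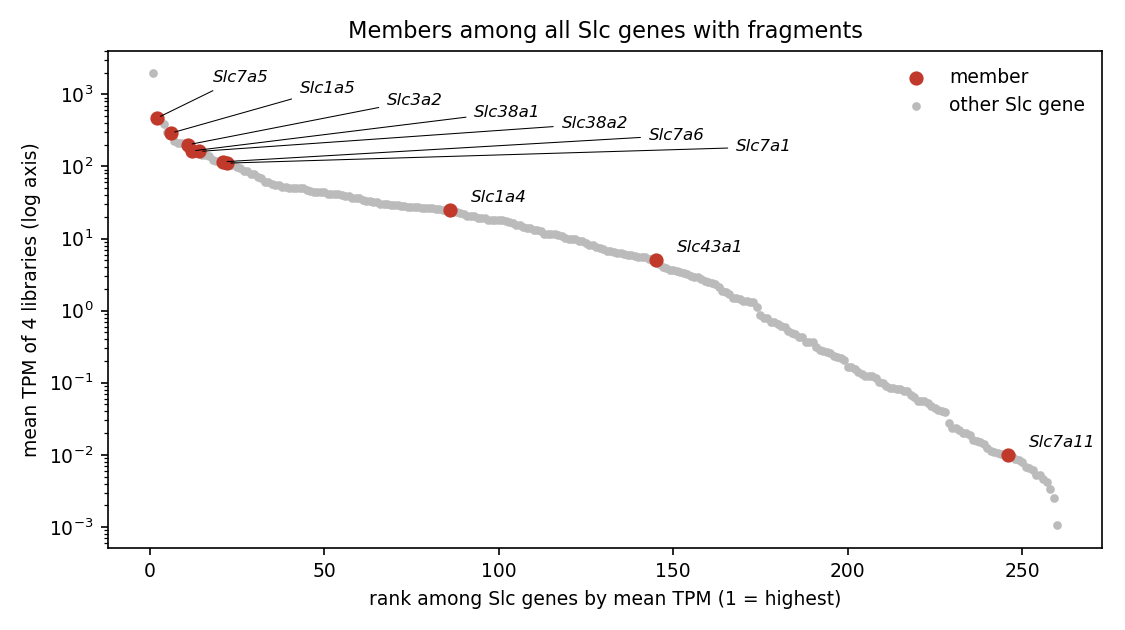
Mean TPM of the 4 libraries, on a log axis, against rank for the 260 protein-coding Slc genes with fragments. Members are the larger labelled points: 5 rank among the 20 highest, and Slc1a4, Slc43a1 and Slc7a11 rank 86, 145 and 246.

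The members made up most of the amino acid carrier RNA that was looked for. Against 50 measured genes of other amino acid carriers, the 10 members held 81.6 ± 0.22% of the TPM of all 60 (SD, n = 4), although the list of 10 was drawn up with earlier results of these data known. Mitochondrial carriers of the Slc25 family were not in the list, so this share does not cover them. Among all 365 Slc genes the members held 15.2 ± 0.372%. Of the 50 other carriers, 15 reached a mean of 1 TPM, 7 reached 10 and 1 reached 100, and 22 had 0 fragments in all 4 libraries. That one was Slc6a6, the taurine carrier, with 121 ± 5.79 TPM. Its mean lay between those of Slc38a2 and Slc7a6. Slc38a10 followed with 96.1 ± 5.55 TPM, Slc43a2 with 28.7 ± 2.65, the aromatic amino acid carrier Slc16a10 with 27.5 ± 0.468 and the lysosomal histidine and peptide carrier Slc15a4 with 16.8 ± 1.70. The lowest with fragments in every library was the glutamate carrier Slc1a2, at 0.0344 to 0.157 TPM.

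**Figure D3:**
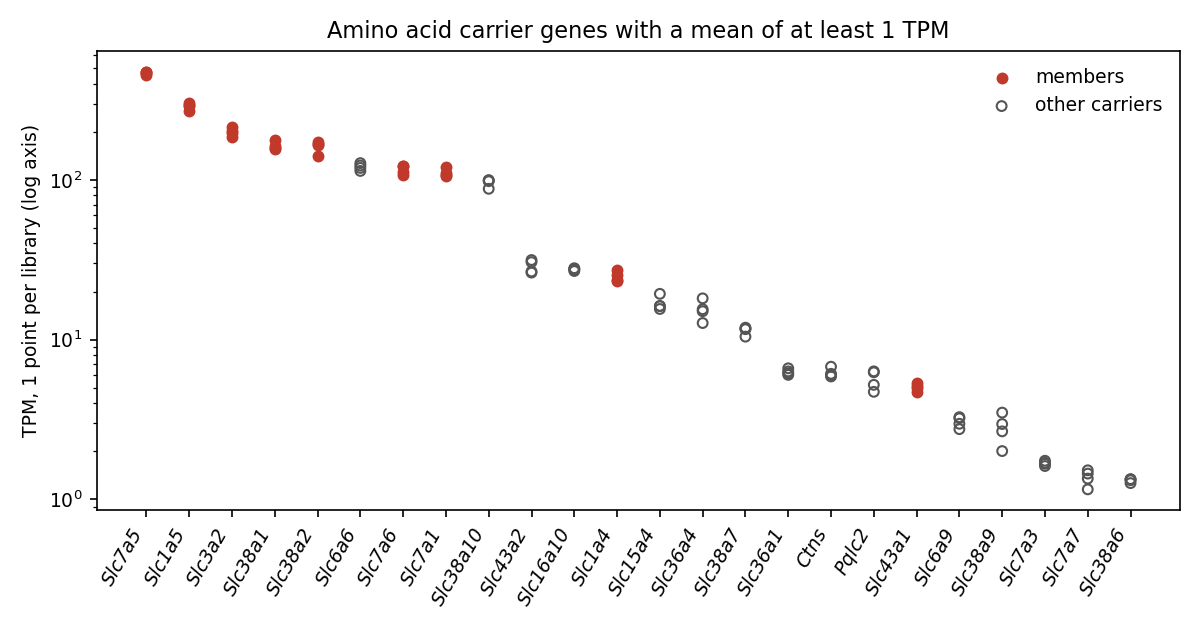
TPM in each library, on a log axis, of the amino acid carrier genes with a mean of at least 1 TPM. Filled points are members and open points other carriers. Above every other carrier lie 5 members, while Slc7a6, Slc7a1, Slc1a4 and Slc43a1 lie among the other carriers.

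Most of the listed enzymes that act on amino acids were expressed alongside. So were the listed regulators, which range from genes that act on the carriers to genes of amino acid sensing. Of 28 enzyme genes, 23 reached a mean of 1 TPM, 18 reached 10 and 7 reached 100, while 3 had 0 fragments in all 4 libraries. Over all protein-coding genes the shares that reached these levels were 47.7%, 36.2% and 9.43%. Odc1, the ornithine decarboxylase that opens polyamine synthesis, had 1145 ± 102 TPM, and Mat2a, which turns methionine into S-adenosylmethionine, had 378 ± 25.3. Aldh18a1, an enzyme of proline synthesis, had 198 ± 12.7 TPM, glutamate dehydrogenase Glud1 187 ± 12.7 and the aspartate aminotransferase Got1 186 ± 10.2. The lowest with fragments in every library was the amino acid oxidase Il4i1, at 0.964 ± 0.211 TPM.

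All 18 regulator genes reached a mean of 1 TPM, 11 reached 10 and 2 reached 100, beside 47.7%, 36.2% and 9.43% of all protein-coding genes. Slc38a9, of the regulators, was also counted among the other carriers. Atf4, the transcription factor that raises carrier genes when amino acids run short, had 707 ± 34.6 TPM, and Myc, which is needed for carrier expression in activated mouse T cells, had 497 ± 13.4. Hif1a, the hypoxia factor, had 94.6 ± 10.5 TPM, Sesn2, a leucine sensor, 69.5 ± 7.97, and Keap1, the inhibitor of NRF2, 67.5 ± 2.87. The NRF2 gene Nfe2l2, named after its value was seen, had 32.0 ± 2.26. The lowest was Chac1, a glutathione-degrading gene known as a target of Atf4, at 2.27 ± 0.672 TPM.

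The abundant members were steady between libraries. The coefficient of variation of TPM ran from 2.18% for Slc7a5 to 8.57% for Slc38a2 in the 8 members with at least 10 TPM, with a median of 5.66%. The median over the 7868 protein-coding genes with at least 10 TPM was 7.22%. On TPM over protein-coding genes alone the medians were 4.65% for the members and 6.11% for those genes. There Slc38a2 had 4.55%, and the highest were Slc7a1 at 6.56% and Slc1a5 at 6.33%, both above the median of those genes. The sets are not matched for abundance, since 7 of the 8 members but 2053 of the 7868 genes reached 100 TPM. Counting error alone, taken at the mean count of the 4 libraries, would give 0.586% for Slc7a5 and 2.47% for Slc1a4. Their observed values were 2.18% and 7.31%, and what sets the rest of this spread was not tested. Counting error gives 4.55% for Slc43a1, whose observed value was 5.63%. For Slc7a11 it gives 55.5%, and the observed value was 131% on 13 fragments in all.

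No tested member passed the test for more spread between libraries than genes of like abundance. By edgeR's quasi-likelihood dispersion set against the trend over all genes, 58 of 12396 features, or 0.468%, passed a Benjamini-Hochberg adjusted p of 0.05. Of the 9 members tested, 0 passed. An unadjusted edgeR p under 0.05 was reached by 0 of them, beside 661 of the 12396 features. Both results for the members are near the shares over all features and are not particular to them. Slc1a5 had the smallest p from edgeR, 0.264 (edgeR adjusted p = 0.988), and its dispersion was 1.41 times the value for its abundance. Slc7a1 was the other member above 1, at 1.08 times. Slc7a5 and Slc43a1 were the steadiest, at 0.218 and 0.220 times. Slc7a11 did not pass the filter on low counts and entered the test only without that filter. There 110 features, or 0.513%, passed, and its p was 0.487 (edgeR adjusted p = 0.961). None of the 17 other carriers, 24 enzymes or 18 regulators tested passed either. A p that misses the threshold does not show that the libraries were alike. On simulated counts a 1.5-fold change in 1 library was called for 14 of 100 genes and a 2-fold change for 73 of 100. That simulation gave every gene the same dispersion and changed replicate 1 only, so these rates need not hold for the real libraries.

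**Figure D4:**
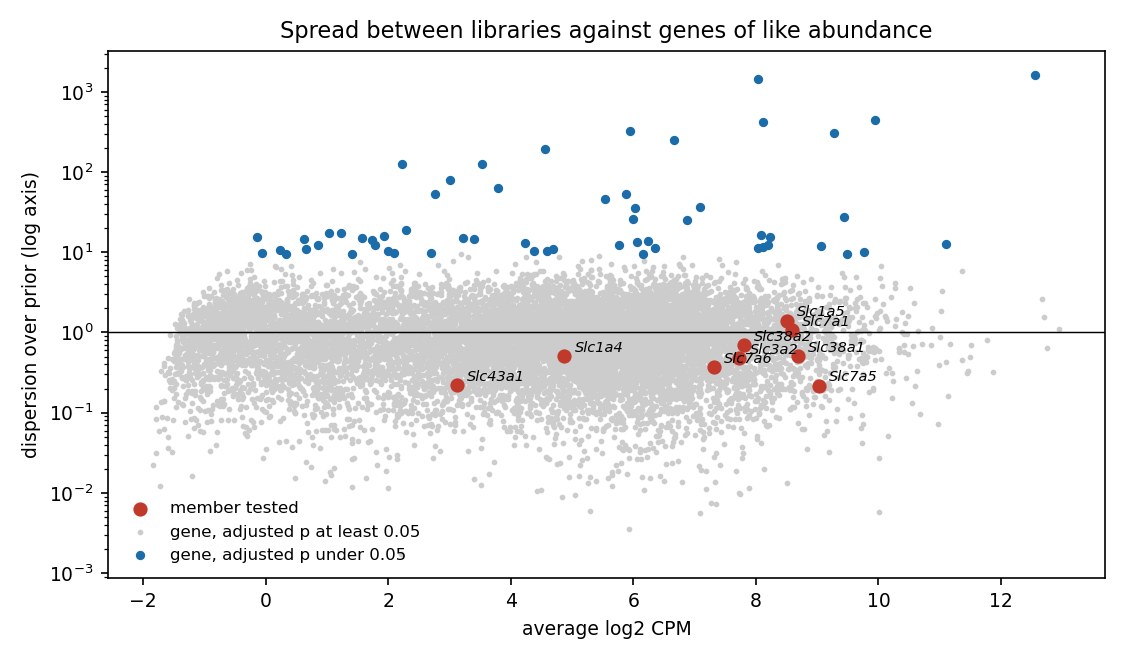
Dispersion between libraries over the value for genes of like abundance, on a log axis, against average log2 CPM, for 12396 features. The 9 members tested lie between 0.218 and 1.41, below the features that passed the adjusted p of 0.05.

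**Figure D5:**
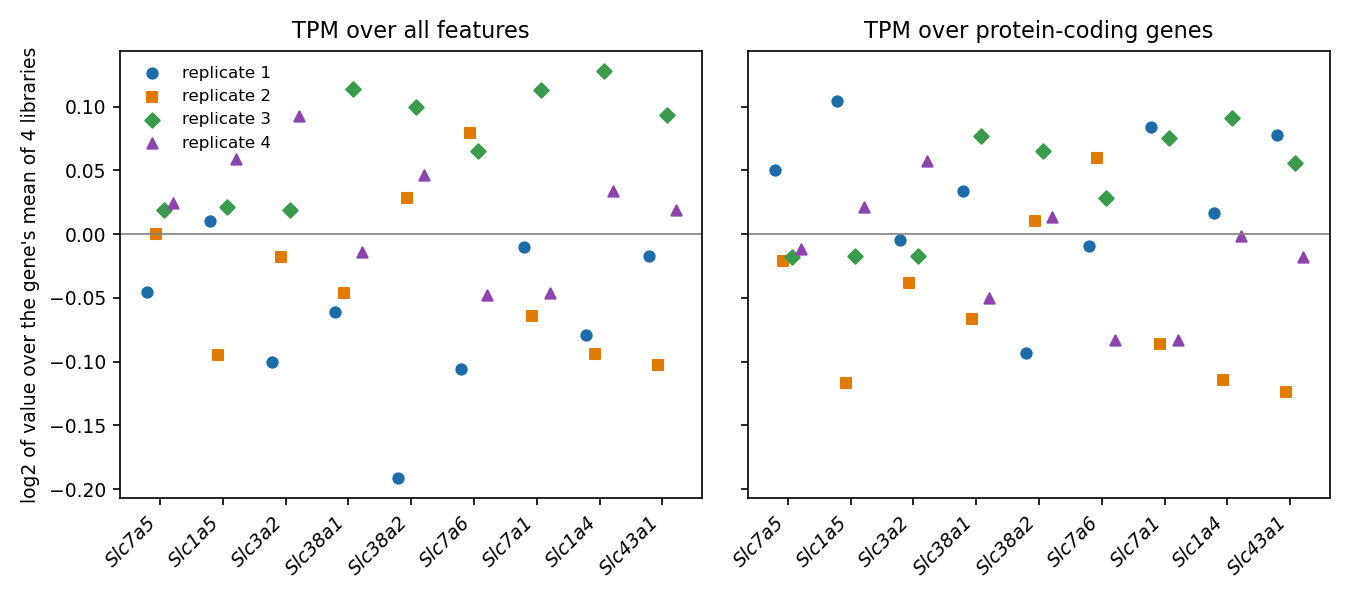
Deviation of each library from the gene's own mean, in log2 units, for the 9 members with at least 1 TPM. The left panel uses TPM over all features and the right panel TPM over protein-coding genes; replicate 1 has a median of -0.06 on the left and 0.03 on the right.

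The position of replicate 1 depended on the scale. On TPM over all features the median deviation of the 9 expressed members was -0.06 (log2) in replicate 1, beside -0.09 for the 10383 expressed protein-coding genes. In replicates 2 to 4 it was -0.05, 0.09 and 0.02, beside 0.01, 0.05 and 0.01 for all. The members' median was thus negative in replicates 1 and 2, the female pair, and positive in replicates 3 and 4. The part of sex in this was not tested. When TPM was scaled to protein-coding genes alone the members' median was 0.03 in replicate 1, beside 0.01 for all. It was -0.07, 0.06 and -0.01 in replicates 2 to 4, beside -0.01, 0.02 and -0.03. Slc7a5, lowest in replicate 1 by the first scale, was highest there by the second, with 514 TPM against 489, 490 and 492 in replicates 2 to 4. Slc38a2 was lowest in replicate 1 by both, with 160 TPM against 172, 179 and 172 on the protein-coding scale. Without replicate 1 the mean TPM was 472 ± 4.27 for Slc7a5, 204 ± 8.03 for Slc3a2 and 168 ± 4.35 for Slc38a2 (SD, n = 3). The part of the Gm42418 share in these values was not tested beyond that rescaling.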

How the data were processed

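RNA was measured in 4 libraries of 1 group. The deposited values are raw counts of fragments per gene, which the authors made with featureCounts (version 1.4.6-p4), as recorded per the file headers. It took pairs with both ends mapped and summed them over each gene's exons in mouse GENCODE release 13, with 2 as the strand setting. The assembly is mm10 per the labels; no aligner is named beyond a tag in an alignment file name. The headers ask for no reads that map to several places or overlap 2 genes. The deposited tables hold each gene's exon union length in bp. No gene that overlaps a member had any fragment, and strand was used in counting.

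Names and gene types came from GENCODE release 21 by gene ID without version, which matched 50376 of 50600 IDs. The counts and deposited lengths gave TPM, CPM and FPKM. Totals were 38590127, 44357436, 48312918 and 93035969 fragments in replicates 1 to 4. A count of 0 allows 3 fragments. No pair of libraries was a duplicate (chi-square over degrees of freedom 12.2 to 137). Spread was tested with edgeR 4.0.16 in R 4.3.3 on all features: filterByExpr, TMM, a quasi-likelihood fit of the intercept alone with a robust prior, and the upper tail of F for the dispersion over its prior, adjusted by Benjamini-Hochberg. The test was tried on simulated counts. Pairs of genes were compared within a library on the log2(TPM + 1) scale by an exact sign-flip permutation test. Alternatives used TPM over protein-coding genes, FPKM, FPKM with TMM library sizes, a pseudocount of 0.1, CPM, DESeq2 1.42.0 size factors, no filter, a non-robust prior, protein-coding genes alone, each library left out and, chosen after seeing the data, the length of the longest transcript.

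Named genes are the 10 members and, from each list of other carriers, enzymes and regulators, the 5 highest and the lowest with fragments in every library. Genes outside this rule are named as parts of a transport family or as stated. The members, lists and transport systems were chosen with earlier results of these data known. Protein sequences were not used here.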

Additional observations from a re-analysis of the deposited data

Results flagged for a closer look

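Of 76 values examined, 3 had a library far from the other 3 by Dixon's ratio, none of them a member; chance alone sets apart about 1 in 20. Slc38a10, another amino acid carrier, had 87.9 TPM in replicate 2, and its other libraries had 98.1 to 99.5. Cth, the cystathionine lyase that makes cysteine, had 2.37 TPM in replicate 4 against 1.81 to 1.86. Trib3, a stress-induced target of Atf4, had 8.64 TPM in replicate 1 against 5.80 to 6.03. None of these 3 genes passed the test of spread by edgeR (adjusted p = 0.985, 0.997 and 0.985). What sets these libraries apart was not tested.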

How the results depend on the processing

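No paired analysis was possible because the 4 libraries form 1 group. Leaving out each library gave a member sum of 1520 to 1560 TPM and a light to heavy chain ratio of 2.89 to 2.98. The median percentile was then 85.4 to 85.7. Variable features numbered 37 to 69 of 12472 to 12633 tested, 37 of 12627 without replicate 1, with 0 members called each time. The member sum of 1539 TPM was 1634 over protein-coding genes, 1457 with the longest transcript (an alternative chosen after seeing the data), 461 as FPKM and 461 as FPKM with TMM sizes, which is a change of scale. The median percentile of 85.6 was 93.1 among all protein-coding genes. With no filter 110 of 21459 features were variable, and with a non-robust prior 36 of 12396, against 58 of 12396. The members called stayed at 0 in every setting run (edgeR adjusted p 0.961 to 0.999). Few features passed in any setting, so 0 members is near the share over all features.

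Without division by length, as log2(CPM + 1), the difference was 0.88 for Slc38a1 minus Slc38a2, 1.29 for Slc7a5 minus Slc3a2, 3.59 for Slc1a5 minus Slc1a4, 5.76 for Slc7a5 minus Slc43a1, 8.97 for Slc7a5 minus Slc7a11 and 1.70 for Slc7a5 minus Slc7a6. With a pseudocount of 0.1 in TPM, Slc7a5 minus Slc43a1 was 6.51 and Slc7a5 minus Slc7a11 12.1, against 8.86 with 1, so the distance to Slc7a11 is set by the pseudocount. The list mean with a pseudocount of 0.1, against 1, was 5.68 against 6.04 for members, -1.12 against 1.08 for other carriers, 3.81 against 4.39 for enzymes and 4.63 against 4.75 for regulators. On the longest transcripts (chosen after seeing the data) the log2(TPM + 1) difference was 0.63 for Slc38a1 minus Slc38a2, 0.97 for Slc7a5 minus Slc3a2, 4.05 for Slc1a5 minus Slc1a4, 5.85 for Slc7a5 minus Slc43a1, 8.60 for Slc7a5 minus Slc7a11 and 1.79 for Slc7a5 minus Slc7a6, and the light to heavy chain ratio was 2.53 against 2.92. A pair ordered alike in 4 of 4 libraries turned round for Slc38a2 minus Slc7a6 on those lengths (-0.21 against 0.47) and for Slc3a2 minus Slc38a1 by CPM (-0.96 against 0.29). The longest Slc38a2 transcript exceeds its counted exons, so both of its differences on those lengths carry that mismatch. By CPM the order of the members changed, with Slc38a1 and Slc7a1 next after Slc7a5 at 412 and 384 CPM against 519. Depth limits Slc7a11, and for Slc43a1 counting error comes close to the observed spread.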
